A study of Mus musculus with 2 samples.

Results

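The subject here is mouse chromosome 6 along its length, as a partner of chromosome 1 in Hi-C contacts. In Hi-C, DNA segments that are neighbours in the fixed nucleus are ligated to each other, and every sequenced pair of ends is counted here as 1 contact. The data held 1 library labelled wild-type ES cells and 1 library labelled *Lin28a* knockout ES cells, both mouse embryonic stem cells kept for 2 days on embryonic fibroblast feeders with the cytokine LIF and the 2i inhibitors. *Lin28a* encodes an RNA-binding protein of pluripotent cells. The labels name no strain, age or clone, and they do not say whether feeder cells were removed before cross-linking. Although 2 replicates per group are mentioned in the labels, each group came as 1 list of pairs without replicate names. There was thus 1 library per group, and no test between the groups was possible.

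The pairs used were those with 1 end on chromosome 1 between 3 and 90.75 Mb, the part held in both lists, and the other end on another chromosome (trans pairs). The wild-type library had 2304846 such pairs and the knockout library 1764698, of which 155009 and 147765 had their other end on chromosome 6. The members are the 1 Mb bins of chromosome 6. Of 150 bins, 147 held any pair, and all 147 had at least 100 wild-type pairs. They are 147 of the 2187 bins with that many pairs on autosomes 2 to 19. For each bin the share of trans pairs in the knockout library was divided by that in the wild-type library, which is called the ratio. The ratio was then divided by the median ratio at the same distance from the centromeric end on the 16 other autosomes from 2 to 19, leaving out 6 and 8, which is called the relative ratio. Chromosome 6 was chosen by its high ratio over its whole length in these same pairs, so that its level is a description here and is given with no test. All intervals are 95% intervals of counting error alone. Shares were not corrected for the amount of DNA of each chromosome, and whether that amount differed between the libraries was not tested.

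Mouse chromosomes carry the centromere at one end, so that low coordinates lie next to the centromere and high coordinates next to the telomere. Centromeres of different mouse chromosomes gather in shared clusters in the nucleus, and a contact between chromosomes therefore depends on how far each end lies from its centromere as well as on which chromosomes meet. Chromosome 6 carries the *Hoxa* cluster, which sets position along the body axis, the pluripotency gene *Nanog*, imprinted genes expressed from 1 parental copy, and large arrays of immune and receptor genes.

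The centromeric end of the assembled chromosome is shown, since the first 10 Mb had the highest relative ratio of the 10 Mb windows. The bin that holds it, at 3 to 4 Mb, had 1.47 and ranked 17 of 147. The first assembled bases, 6:3050001-3050160 of GRCm38 on the plus strand, follow a run of unknown bases that stands for the centromere, and the capitals mark GATC, the site at which the restriction fragments of these libraries end. It occurs 2 times in this stretch.
Centromeric end: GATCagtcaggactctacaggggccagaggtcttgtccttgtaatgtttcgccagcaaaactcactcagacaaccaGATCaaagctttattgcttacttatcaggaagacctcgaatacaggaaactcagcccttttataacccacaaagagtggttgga

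Every 1 Mb bin of chromosome 6 had a relative ratio above 1. The 147 bins ran from 1.07 to 1.62 with a median of 1.304, and the interval of 145 bins lay above 1. A bin held 379 to 1822 wild-type pairs (median 1035) and 326 to 1947 knockout pairs (median 978), which gives a median counting error of 0.064 on the log2 scale. In 136 of the 147 bins the ratio was above that of every reference chromosome at the same distance. A relative ratio over 1.2 was found in 124 bins (84.4%), where the same measure found it in 8.14% of the 2040 bins of the other autosomes. The latter were 126 of 127 bins of chromosome 8 and 40 of 1913 bins elsewhere. Since the rule chose chromosome 6 on this contrast, nothing is read from that difference. Just inside the threshold were the bins starting at 94 Mb (1.2006) and 125 Mb (1.203), and just outside it those starting at 127 Mb (1.1973) and 128 Mb (1.197).

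By 10 Mb window over all pairs, the excess was largest in the first window and was smaller farther along the chromosome. In the first 10 Mb there were 7814 wild-type and 9616 knockout pairs, and the relative ratio was 1.5003 (1.46 to 1.55). In the last 10 Mb there were 9657 and 7607 pairs, and the relative ratio was 1.25 (1.22 to 1.29). The windows between them had 1.44 at 10 to 20 Mb, 1.43 at 20 to 30 Mb and 1.40 at 30 to 40 Mb, then 1.31 at 40 to 50 Mb and 1.33 at 50 to 60 Mb. From 60 Mb on, the windows lay between 1.22 (120 to 130 Mb) and 1.32 (80 to 90 Mb), and the intervals of these 2 windows did not overlap. All 15 windows lay above the highest reference chromosome at their distance.

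**Figure D1:**
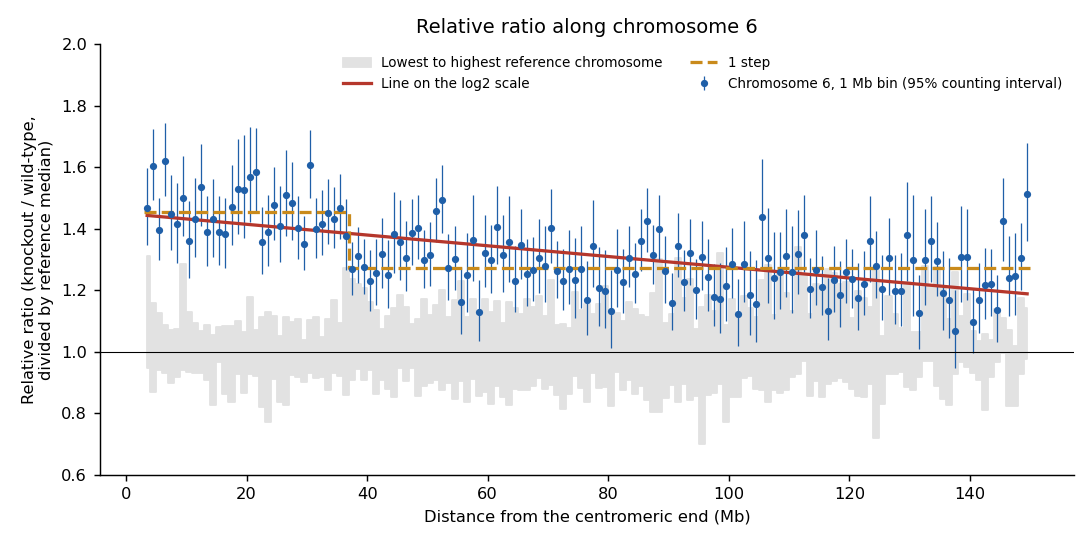
Relative ratio of each 1 Mb bin of chromosome 6 (points, 95% counting interval) against the distance from the centromeric end in Mb, with the lowest and highest reference chromosome in each bin (grey), the fitted line (red) and the fitted single step (dashed). All 147 points lie above 1, the bins before 36 Mb lie between 1.35 and 1.62, and the line falls from 1.44 to 1.19.

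The division by the other autosomes matters for this shape. Before it, the ratio of chromosome 6 fell from 1.61 in the first window to 1.03 in the last, by 36.0%, and the median of the reference chromosomes fell over the same windows from 1.07 to 0.821, by 23.4%. The last window has 5 reference chromosomes and the first 16. The fall of the reference depended on the chromosome 1 end. With first ends in the lowest of 3 equal parts of the chromosome 1 stretch the reference went from 1.21 to 0.789, and in the middle part from 1.06 to 0.801. In the highest part it went from 0.901 to 0.904, with no fall between the end windows. Between them it rose to 0.996 at 40 to 50 Mb and was 0.887 at 130 to 140 Mb. Chromosome 8, the other chromosome left out of the reference, had relative ratios of 1.40 (1.35 to 1.45) in its first 10 Mb and 1.42 (1.38 to 1.46) at 120 to 130 Mb, with its highest value of 1.56 at 100 to 110 Mb.

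**Figure D2:**
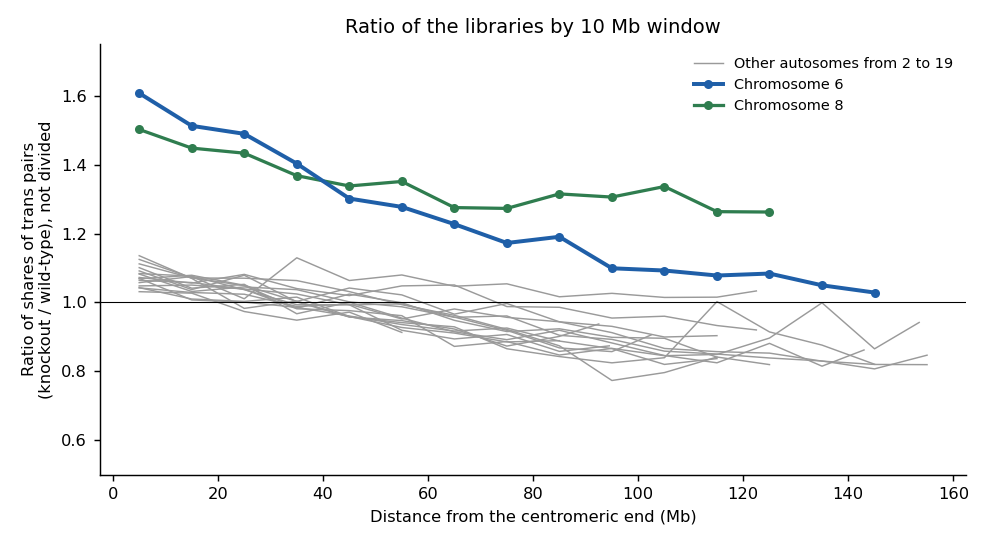
Ratio of the shares of trans pairs (knockout over wild-type, not divided by the reference) in 10 Mb windows against the distance from the centromeric end in Mb, 1 line per autosome. Chromosome 6 falls from 1.61 to 1.03, below chromosome 8 from 40 Mb on, and above all the other autosomes throughout.

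Each library was also taken on its own, as pairs per assembled base of chromosome 6 over the median of the 16 reference chromosomes. Over the whole chromosome the wild-type library had 1.02 and the knockout library 1.31, which placed chromosome 6 at rank 7 and rank 2 of 18 autosomes. By 10 Mb window the wild-type values ran from 0.710 to 1.46 and the knockout values from 0.860 to 1.92, and the knockout value was the higher in all 15 windows. The ranks by window leave out chromosome 8. In the first window the wild-type value was 0.899 (rank 14 of 17 chromosomes) and the knockout value 1.33 (rank 1). In the last it was 1.25 (rank 3 of 6) and 1.49 (rank 2). The knockout value of the first window was close to that of the highest reference chromosome (1.32), so that its rank is not settled.

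A straight line through the log2 relative ratios, weighted by counts, had a slope of -0.19 per 100 Mb (-0.22 to -0.17). This was the lowest of 18 autosomes, each divided by the others in the same way. Chromosome 10 came next at -0.17 (-0.21 to -0.14), and their intervals overlapped. The 16 reference chromosomes ran from there to 0.23 (chromosome 14) with a median of -0.03, and chromosome 8 had 0.11 (0.08 to 0.14). The line left a weighted residual mean square of 2.23 on chromosome 6, where counting error alone gives about 1. On the reference chromosomes it left 1.21 to 3.25, with a median of 1.77. The error of the reference median is not part of the counting error, so that a value slightly above 1 does not by itself show excess scatter. The 2.23 of chromosome 6 is more than slightly above 1. The intervals of the slope and of the step below rest on counting error alone and do not hold this scatter. The spread between libraries could not be measured.

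The largest step on chromosome 6 was a fall at 36 Mb. In the 10 bins before it the relative ratio ran from 1.35 to 1.61 (median 1.44), and in the 10 bins after it from 1.23 to 1.38 (median 1.29), so that the groups of bins overlapped. The weighted means were 1.446 and 1.296, a difference of -0.16 on the log2 scale (-0.21 to -0.11), where the fitted line changes by -0.02 over 10 Mb. The ratio before division had medians of 1.449 and 1.3003 on the 2 sides, while the reference lay between 0.986 and 1.03 before the step and 0.978 and 1.02 after it, so that the change was in the pairs of chromosome 6. All 33 bins before 36 Mb were above the median bin after it, and 3 of 114 bins after it were above the median bin before it. The edge was picked from 132 edges in these same bins, and the line falls too, so these counts partly restate that choice. The step is not among the largest found in this way. It ranked 8 of 18 autosomes, below chromosome 5 (0.29 at 109 Mb), chromosome 4 (0.27 at 126 Mb) and chromosome 10 (-0.22 at 86 Mb), and the reference chromosomes had sizes of 0.09 to 0.29 with a median of 0.14. With 5 Mb to either side in place of 10 Mb, the largest step of chromosome 6 was a rise of 0.20 at 145 Mb, next to the telomere.

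**Figure D3:**
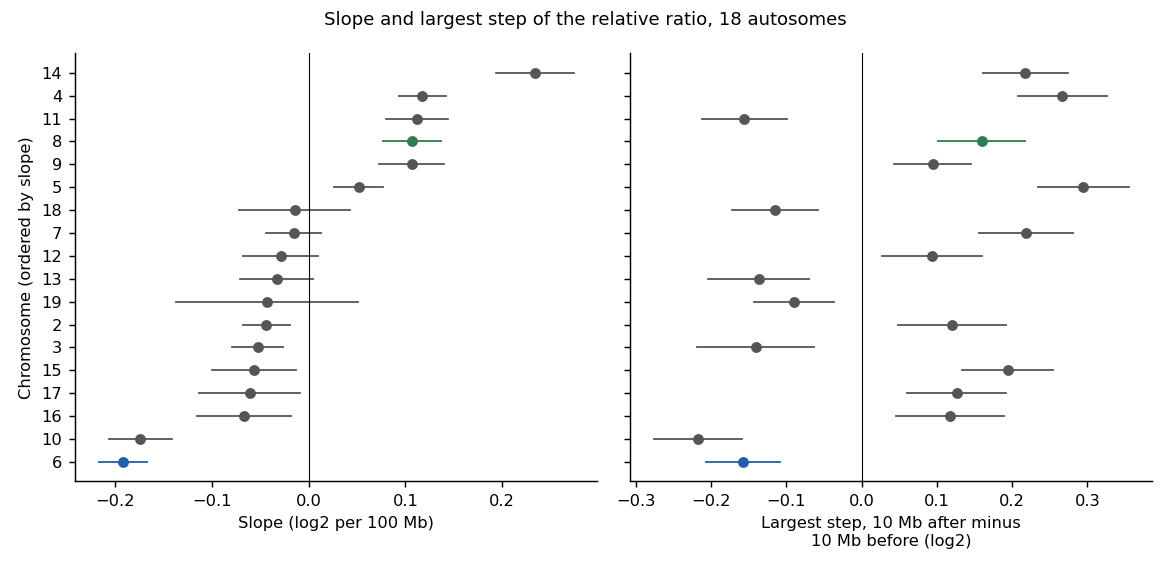
Slope of the relative ratio in log2 per 100 Mb (left) and its largest step in log2, 10 Mb after an edge minus 10 Mb before it (right), for 18 autosomes ordered by slope (points, 95% counting interval; chromosome 6 in blue, chromosome 8 in green). Chromosome 6 has the lowest slope, -0.19, and a step of -0.16 that lies within the range of the other autosomes.

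A step and a gradient were set against each other by the scatter each leaves. A constant left a weighted residual sum of 552 on chromosome 6, a line 323, 1 step 292 (at 37 Mb, from 1.45 to 1.27) and 2 steps 263 (at 36 and 89 Mb, with levels of 1.456, 1.303 and 1.243). A line that falls to 75.5 Mb and is flat after it, a form chosen after the profile had been seen, left 286. Per degree of freedom these were 3.78, 2.23, 2.03, 1.85 and 1.99. A single step has a free position, and it left less than a line on all 18 autosomes, so that its lower value on chromosome 6 does not tell the forms apart. Within the stretch before 36 Mb the slope was -0.14 per 100 Mb (-0.34 to 0.06), and within the stretch after it -0.09 (-0.13 to -0.06). Without the 10 Mb next to the edge on each side, these were -0.26 (-0.63 to 0.11) and -0.11 (-0.15 to -0.06). The edge was chosen as the largest fall, which shapes the slopes on both sides of it, and the intervals of the stretch before it are wide, so that the 2 slopes are not told apart.

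The profile was also taken by the position of the chromosome 1 end. The part of chromosome 1 was cut into 3 equal parts, from 3 to 32.25 Mb, from there to 61.5 Mb and from there to 90.75 Mb. The relative ratio of chromosome 6 was 1.29 (1.27 to 1.302), 1.29 (1.28 to 1.31) and 1.31 (1.29 to 1.32). In its first 10 Mb it was 1.496, 1.495 and 1.44, and in its last 10 Mb 1.24, 1.21 and 1.24, with overlapping intervals. In the first and middle part the first window was the highest, and in the last part the highest was 10 to 20 Mb with 1.53 (1.45 to 1.62). The slopes were -0.18, -0.22 and -0.19 per 100 Mb, and the last minus the first was -0.01 with an interval of half-width 0.062. The fall at 36 Mb was -0.11 (-0.20 to -0.03) in the first part, -0.15 (-0.23 to -0.07) in the middle part and -0.24 (-0.33 to -0.15) in the last part. These share the pairs that located the edge. The largest step of each part taken by itself lay at 34 Mb (-0.12), at 135 Mb (-0.23, with an interval of -0.34 to -0.11) and at 37 Mb (-0.24), so that in the middle part it was not near 36 Mb. Before division the parts differed. The ratio of chromosome 6 went from 1.81 in the first window to 0.979 in the last with the first part, from 1.59 to 0.970 with the middle part and from 1.296 to 1.12 with the last part, where it was highest at 30 to 40 Mb (1.39). In 10 Mb pieces of chromosome 1, chromosome 6 ran from 1.28 (10 to 20 Mb) to 1.33 (80 to 90 Mb). Of the 135 fields of 10 by 10 Mb between the 2 chromosomes all were above 1, from 1.08 to 1.58, and the interval of 134 lay above 1. With first ends at 80 to 90 Mb the highest field was 30 to 40 Mb of chromosome 6 (1.57, 1.47 to 1.68), and its first 10 Mb had 1.36 (1.22 to 1.51). Before division the fields ran from 0.874 to 2.04.

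The leading fields of the read names took 2 values per library, and the pairs of each value are called a run here. They may be lanes rather than separate runs, and the labels do not tie them to replicates. The larger and the smaller run were matched between the libraries by size alone. In the larger runs the first and last 10 Mb of chromosome 6 had 1.499 (1.45 to 1.55) and 1.26 (1.22 to 1.296). In the smaller runs, with 695 wild-type and 405 knockout pairs in the first 10 Mb, they had 1.49 (1.32 to 1.69) and 1.14 (0.995 to 1.2955). The fall at 36 Mb was -0.17 (-0.22 to -0.12) in the larger runs and -0.00466 (-0.21 to 0.20) in the smaller runs, whose interval is wide enough to hold both values.

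**Figure D4:**
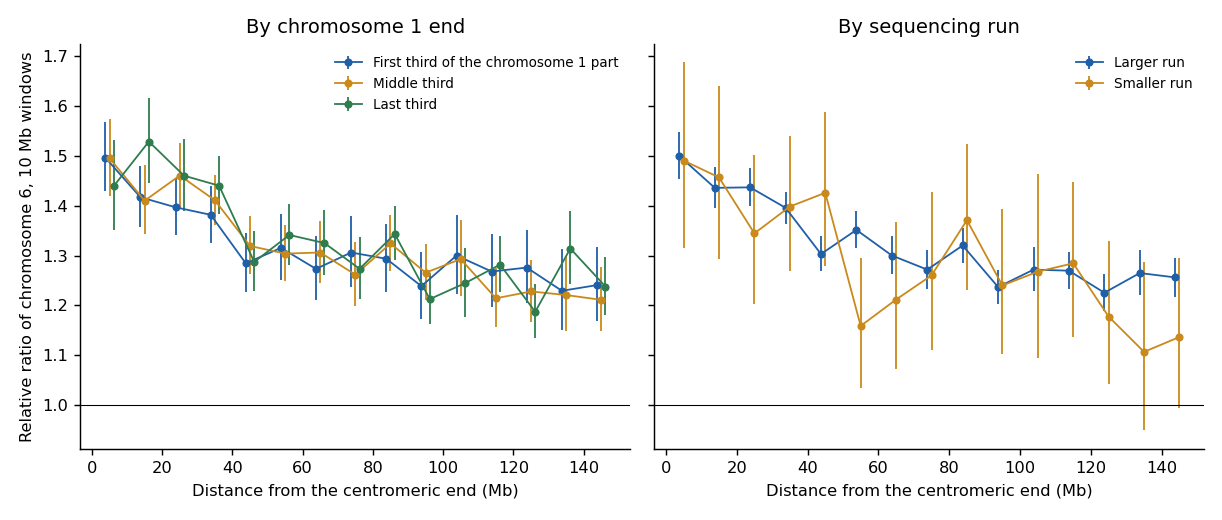
Relative ratio of chromosome 6 in 10 Mb windows (95% counting interval) against the distance from the centromeric end in Mb, by position of the chromosome 1 end (left) and by run as told from the read names (right). For all 3 parts of chromosome 1 the first window lies between 1.44 and 1.496 and the last between 1.21 and 1.24, and the smaller run scatters around the larger one.

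Gene-rich and gene-poor bins had like levels once their position was taken into account. Each gene was counted in the bin that holds its midpoint. A bin inside a long gene can thus count 0 genes, as at 45 to 46 Mb in *Cntnap2*. The 147 bins fell into 50 gene-poor bins with 0 to 2 protein-coding genes, 50 with 3 to 9 and 47 gene-rich bins with 10 to 34. Their relative ratios ran from 1.12 to 1.57 (median 1.31), from 1.07 to 1.62 (median 1.304) and from 1.12 to 1.61 (median 1.28). Gene-rich bins lay farther from the centromere, with a median position of 87.5 Mb against 69.0 Mb, and only 4 of the 47 lay before 36 Mb. After the line had been taken off, gene-rich minus gene-poor bins differed by 0.01 on the log2 scale (-0.02 to 0.03), and the sign turned under other settings. On the other autosomes, 8 left out, this difference ran from -0.00043 (chromosome 19) to 0.07 (chromosome 7). Before 36 Mb the medians of gene-poor, middle and gene-rich bins were 1.44, 1.45 and 1.45, and after it 1.28, 1.26 and 1.26. The residuals had a Spearman correlation over the 147 bins of 0.02 with gene count, -0.06 with GC content and -0.10 with GATC sites per kb. Bins share both libraries, so these are descriptions.

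The 5 highest bins all lay before 36 Mb. The highest, at 6 to 7 Mb, had 1257 wild-type and 1652 knockout pairs and a relative ratio of 1.62 (1.5045 to 1.74), and holds *Slc25a13*, a mitochondrial aspartate-glutamate carrier, and *Sdhaf3*, an assembly factor of succinate dehydrogenase. The bin at 30 to 31 Mb (1547 and 1880 pairs, 1.61) holds *Copg2*, a coat protein gene in an imprinted region, and *Nrf1*, a transcription factor of mitochondrial genes. The bin at 4 to 5 Mb (1323 and 1759 pairs, 1.60) holds *Ppp1r9a* and the imprinted gene *Sgce*. The bin at 21 to 22 Mb (923 and 1165 pairs, 1.58) holds the potassium channel gene *Kcnd2* and *Tspan12*, and the bin at 20 to 21 Mb (728 and 915 pairs, 1.57) holds no annotated protein-coding gene.

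The 5 lowest bins all lay after 36 Mb. The lowest, at 137 to 138 Mb, had 694 wild-type and 481 knockout pairs and a relative ratio of 1.07 (0.949 to 1.201), and holds the receptor phosphatase gene *Ptpro* and *Eps8*, a regulator of actin. It was followed by the bins at 140 to 141 Mb (1006 and 739 pairs, 1.097, *Plekha5* and *Aebp2*), 101 to 102 Mb (946 and 732 pairs, 1.12, *Pdzrn3*), 131 to 132 Mb (836 and 594 pairs, 1.12, *Styk1* and the natural killer receptor gene *Klra2*) and 58 to 59 Mb (1121 and 965 pairs, 1.13, *Abcg2* and *Herc3*). The intervals of the lowest and the next bin include 1.

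Windows of 1 Mb centred on 52 genes of chromosome 6 gave the level at known loci. Their relative ratios ran from 1.11 to 1.61 with a median of 1.28, and the interval of 51 lay above 1. The value of the fitted line at the gene lay inside the interval for 35 of the 52. Neighbouring genes share most of their windows and count as 1 locus.

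The early embryo and pluripotency genes form 1 such locus in the bin at 122 to 123 Mb. *Nanog* (6:122707489-122714633), a core transcription factor of pluripotency, had 1248 wild-type and 1048 knockout pairs in its window and a relative ratio of 1.23 (1.13 to 1.34), where the line gives 1.23. The 5 genes ran from there to 1.27 at *Gdf3*, a signalling ligand of the early embryo, and the line lay inside the interval of all 5.

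Among 12 developmental regulators, the homeobox genes *Hoxa9* and *Hoxa13* had relative ratios of 1.48 (1.38 to 1.59) and 1.46 (1.36 to 1.57), and their neighbour *Evx1* had 1.47 (1.36 to 1.57), in overlapping windows. The line gives 1.35 there, below the interval of each. The lowest of the list was *Sox5*, a transcription factor of cartilage and neurons, with 1046 and 734 pairs and 1.18 (1.07 to 1.295), where the line gives 1.196. The line lay inside the interval of 8 of the 12.

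The 6 imprinted genes lie at 3 loci and did not share a level. *Sgce*, a sarcoglycan expressed from the paternal copy, had 1356 wild-type and 1825 knockout pairs and the highest value of 1.61 (1.498 to 1.73), and its neighbour *Peg10*, a gene derived from a retrotransposon and needed in the placenta, had 1.57. *Mest* and *Copg2* in the bin at 30 to 31 Mb had 1.57 and 1.498. These 4 windows lay above the line. *Herc3* had 1148 and 1044 pairs and the lowest value of 1.22 (1.12 to 1.33), and *Nap1l5*, which lies within it, had 1.23, both below the line value of 1.34.

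The 10 genes of growth and cell cycle ran from 1.19 at *Foxm1*, a transcription factor of mitosis, to 1.49 at *Met*, the receptor of hepatocyte growth factor. *Met* had 938 and 1127 pairs and *Foxm1* 959 and 768, and the line lay inside the interval of both. It lay below the interval at 3 genes, *Cdkn1b* (1.43), *Etv6* (1.33) and *Rad52* (1.37). The 9 long neuronal genes ran from 1.18 at *Cntn6* to 1.36 at *Cntn4*, both cell adhesion molecules of neurons, and the line lay inside the interval of all 9. The 10 receptor and immune genes ran from 1.11 (0.991 to 1.24) at the bitter taste receptor *Tas2r105*, with 782 and 559 pairs, to 1.47 (1.35 to 1.61) at *Igkc*, the constant segment of the immunoglobulin kappa light chain, with 1063 and 1091 pairs, and the line lay inside the interval of 6.

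The knockout list also held pairs with first ends elsewhere, on the rest of chromosome 1 and on chromosome 2 up to 42 Mb, for which no wild-type pairs were analysed. They were set against the wild-type pairs of chromosome 1 with the 15 reference chromosomes other than 2. Of the autosomal partners, chromosome 6 took 6.93% in the wild-type pairs of chromosome 1, 8.60% in the knockout pairs of the same part, 9.70% from the rest of chromosome 1 and 8.99% from chromosome 2. The relative ratio of the whole chromosome was 1.51 (1.501 to 1.52) from the rest of chromosome 1, where the reference chromosomes reached 1.14, and 1.26 (1.25 to 1.27) from chromosome 2, where they reached 1.12. By 10 Mb window chromosome 6 was above every reference chromosome in 10 of 15 windows from the rest of chromosome 1 and in 8 of 15 from chromosome 2. The windows inside the reference range were 30 to 60 Mb and 80 to 100 Mb in the former, and 60 to 80 Mb and 100 to 150 Mb in the latter.

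The fall along chromosome 6 could not be settled from these other ends. From chromosome 2 the relative ratio was 1.48 in the first 10 Mb and 1.04 (0.998 to 1.08) in the last, with 1.52 at 80 to 90 Mb between them. The slope was -0.31 per 100 Mb (-0.34 to -0.28) where densities were divided by their median over chromosomes before the ratio was taken. Where the ratio of bins was taken first, as for the main slope of chromosome 6, it was -0.27 (-0.30 to -0.24). The main slope of -0.19 has 16 reference chromosomes. With the 15 used here, knockout pairs of the part of chromosome 1 shared with wild-type had -0.20 (-0.22 to -0.17). Where the ratio of bins was taken first, they had -0.21 (-0.23 to -0.18). From the rest of chromosome 1 the relative ratio was 1.503 in the first 10 Mb, 1.11 at 80 to 90 Mb, 1.65 at 130 to 140 Mb and 1.45 in the last 10 Mb. The slope there was 0.08 (0.06 to 0.11), or 0.02 (-0.01 to 0.04) where the ratio of bins was taken first, so that a rise was not settled. The first 10 Mb had a value near 1.5 from all 3 kinds of first end, and the last 10 Mb did not have one value. All 3 values of the first 10 Mb are divided by the same 7814 wild-type pairs, so their likeness is partly built in. In wild-type that window had a low density, 0.899 at rank 14 of 17 chromosomes. Within the knockout library alone, against the shared part of chromosome 1, that window had 1.02 (0.989 to 1.05) from chromosome 2. From the rest of chromosome 1 it had 0.987 (0.953 to 1.02). The largest step lay at 94 Mb from chromosome 2 (-0.57) and at 127 Mb from the rest of chromosome 1 (0.47), or at 95 Mb for both (-0.55 and 0.33) where the ratio of bins was taken first, and in neither case near 36 Mb. Pairs of the knockout library alone, chromosome 2 against the shared part of chromosome 1, had a slope of -0.10 (-0.13 to -0.07) and a largest step of -0.46 at 94 Mb. These were -0.07 (-0.10 to -0.04) and -0.41 at 95 Mb where the ratio of bins was taken first. The rest of chromosome 1 against its shared part, also within the knockout library, had a slope of 0.25 (0.23 to 0.28) and a largest step of 0.47 at 127 Mb (0.17 and 0.36 at 95 Mb where the ratio of bins was taken first). Judged by counting error alone, first ends thus differed within 1 library, on the same chromosome as well as on different ones. However, the lines left weighted residual mean squares of 6.82 to 11.5 within the knockout library. Against wild-type, the other first ends left 8.5 to 12.5, and the shared part 2.18 to 2.9. The intervals of these slopes and steps do not hold this scatter and are too narrow. Whether first ends differed beyond it was not tested. The reference chromosomes, taken as the ratio of bins, had slopes of -0.48 to 0.46 from chromosome 2 against wild-type, a range that holds the value of chromosome 6. From the rest of chromosome 1 against wild-type they had -0.48 to 0.46 as well, which holds the 0.02 of chromosome 6. No such range was taken for the rest of chromosome 1 against its shared part. Within the knockout library, from chromosome 2 against the shared part, the reference chromosomes had -0.42 to 0.46 (median -0.05). This range holds the value of chromosome 6 too. There chromosome 6 was above every reference chromosome in 0 of 15 windows, and in 3 of 15 from the rest of chromosome 1. The genotype and the first end cannot be told apart in these comparisons.

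**Figure D5:**
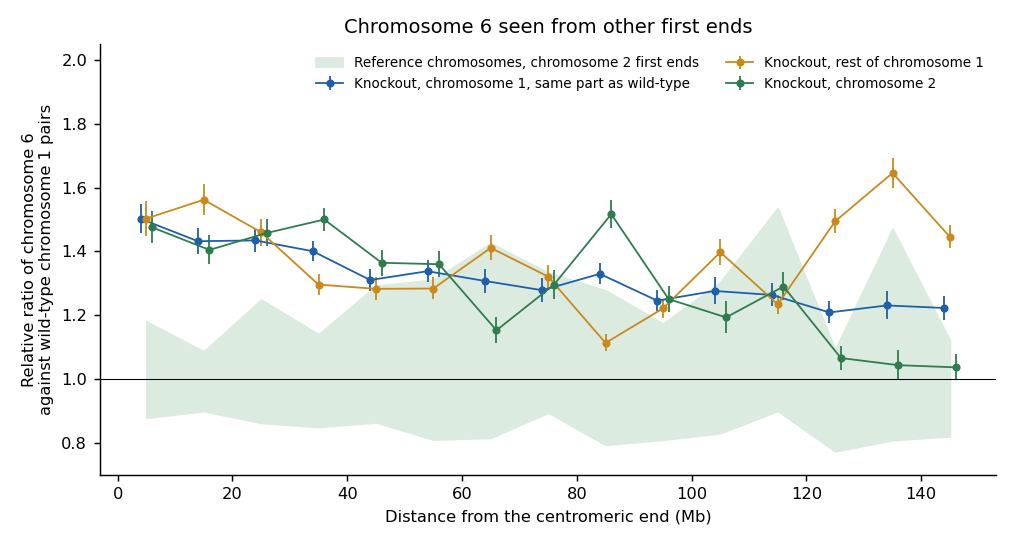
Relative ratio of chromosome 6 in 10 Mb windows (95% counting interval) against the distance from the centromeric end in Mb, for knockout pairs with first ends on the shared part of chromosome 1, on the rest of chromosome 1 and on chromosome 2, all over the wild-type pairs of chromosome 1 (reference range for chromosome 2 shaded). All 3 start near 1.5, and in the last window they are at 1.22, 1.45 and 1.04. Chromosome 2 is left out of the reference here. With chromosome 2 in the reference, the shared part had 1.25 in the last window.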

How the data were processed

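Hi-C pairs were analysed from 1 wild-type and 1 *Lin28a* knockout library of mouse ES cells. Per the labels, the submitters' processing notes name CASAVA 1.8, Bowtie2, HiC-Pro and the build mm10. Each line of the deposited lists is 1 valid pair in HiC-Pro format, with the position of each end and a mapping quality score from 11 to 42 given by the authors' alignment, and no normalization. They were partial here: the wild-type list (5793079 lines) ended on chromosome 1 at 90862049 and the knockout list (11430967 lines) on chromosome 2 at 42080638. Pairs carry no expression, so that neither the knockout nor the ES cell type was checked here. Pairs within chromosome 6 and pairs of chromosome 6 with chromosomes other than 1 and 2 were not analysed here.

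The members, gene lists and measures were chosen with earlier results of these data known. Trans pairs on assembled chromosomes were counted in 1 Mb bins of the partner. Reference bins needed 50 pairs in each library, and 16 reference chromosomes reached the first bins and 4 the last. Intervals were exact binomial (Clopper-Pearson) limits on how the summed count divides between both libraries, with the reference held fixed, or from the counting error of a weighted fit. PCR copies and counts that vary between cultures are not covered by them. Bins named in the text are the 5 highest and 5 lowest relative ratios with up to 2 protein-coding genes each (the most bases in the bin, provisional names left out). From each of 6 fixed gene lists the highest and lowest are named, with *Nanog*. Where an item was withheld, it is not reported here. Others were chosen after their values were seen. Of 55 listed genes, 3 were not found on chromosome 6 in the RefSeq annotation of GRCm38.p6. That build fits the lists: the fragment number of the last wild-type end (219417) is the count of GATC sites before it in the reference (219416) plus 1. The fits were tested on simulated pair counts with known slopes and steps. Python 3.11.15 with NumPy 2.4.6, pandas 2.3.3 and SciPy 1.17.1 was used.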

Additional observations from a re-analysis of the deposited data

How the results depend on the processing

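Of 103 alternative values, 75 stayed within the counting interval of the value given (a count within 1.5 times), 20 moved past it and 8 changed sign. The relative ratio of chromosome 6 (1.29) was 1.264 in the smaller run of each library, 1.329 against long chromosomes 2, 3, 4, 5 and 7, 1.272 without 5 kb windows that hold 15 or more pairs, and 1.322 against reference bins of like gene count. The first 10 Mb had 1.453 without the dense 5 kb windows. The last 10 Mb (1.25) had 1.137 in the smaller run and 1.165 with positions scaled to chromosome length. The slope (-0.19) was -0.2418 in the smaller run, -0.223 with scaled positions and -0.1568 without the dense windows. The largest step (-0.16 at 36 Mb) was -0.4646 at 53 Mb in the smaller run and a rise of 0.1982 at 145 Mb with 5 Mb to either side, and lay at 36 to 37 Mb in the others. Slopes of the last minus the first part of chromosome 1 were near 0 (-0.0059) and took the other sign in the larger run (0.006755), without chromosomes 4, 9 and 14 (0.007559) and without the first 20 Mb of chromosome 1 (0.01956), with -0.171 in the smaller run (half-width 0.265). Gene-rich minus gene-poor bins (0.006214) had -0.02177 against bins of like gene count, -0.003262 in 2 Mb bins and -0.01263 where bins were split at the median, and 0.0609 in the smaller run. The count over 1.2 was 234 of 294 bins of 500 kb, 67 of 74 bins of 2 Mb and 89 of 147 bins in the smaller run, and 76 of 147 bins were over 1.3. The share on the other autosomes was taken only for 1 Mb bins over 1.2 in all pairs (8.14%), so nothing is read from these counts. The slope from chromosome 2 (-0.3074) was -0.2172 with scaled positions, -0.2158 without chromosomes 4, 9 and 14 and -0.2722 against long chromosomes 3, 4, 5 and 7. It was -0.2674 where the ratio was taken before the median, which is the order used for the slope of -0.19. That alternative was chosen after seeing the data. The slope of -0.19 has 16 reference chromosomes, and with the 15 other than chromosome 2 it was -0.2086. The slope was 0.08244 from the rest of chromosome 1. The causes were not tested. No paired analysis was possible because each group had 1 library.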
